A study of Mus musculus with 4 samples.

Results

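The cells compared here are mouse hypothalamic cells of the Rax lineage at birth (P0) and about 1 week later (P7). They were chosen by the run named in each cell's column: all 9628 cells of the second P0 run and all 8917 cells of the P7 run, 18545 of the 43261 cells in the series. The animals were C57BL/6J mice of the genotype Rax-CreERT2::Ai14, in which a tamoxifen-inducible Cre made under the Rax gene switches on the red protein tdTomato in cells that express Rax at the time of the dose and in all their descendants. Tamoxifen was given once before birth, on embryonic day 9 by the series' design text and 9.5 by the protocol, and both ages carry the same alleles and the same dose. Hypothalamus was dissected at P0 and at P7 (7.5 in the age label), live tdTomato-positive cells were sorted, and single-cell RNA libraries were sequenced. Cells that never expressed Rax by the day of the dose lie outside this lineage and outside the sort. The series also holds embryonic cells, which enter no comparison here. A smaller first P0 run of 2452 cells is set beside the other runs for many of the genes and lists named.

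The hypothalamus is the part of the forebrain that sets feeding, water balance, growth, reproduction and body temperature, largely through neurons that release peptides. Its neurons are born before birth from radial glia, dividing cells that line the third ventricle. The same lineage later gives astrocytes, oligodendrocyte precursors, the ciliated ependymal cells of the ventricle wall and the tanycytes, radial-glia-like cells of the ventricle floor. Around birth, hypothalamic neurons extend axons, form synapses and start to make their peptides in quantity, while gliogenesis is under way.

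Each age had 1 library in this comparison, so there is no replicate and no test. A level is the number of UMIs (unique molecular identifiers, 1 for each captured transcript) of a gene summed over the cells of a run, scaled to a total of 1000000 (CPM). A ratio is P7 over P0 run 2, and its 95% interval covers counting error only, not the spread between animals. A gene was counted where the mean of its 2 levels reached 2 CPM, and it was called higher or lower from a 2-fold difference on. A sum over all cells of a run does not separate the number of cells of a kind from the RNA that each holds, so class levels follow where they could be had.

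The runs differed in more than age. P0 run 2 had 108084013 UMIs with a median of 10053 per cell, P7 had 123098471 with a median of 11174, and P0 run 1 had 17762480 with a median of 6059. Male cells, with a UMI of a Y-linked gene and none of Xist, made up 51.8% of P0 run 2, 85.0% of P7 and 39.6% of P0 run 1. Cells of the female pattern were 26.5% of P0 run 2, 0.0224% of P7 and 0.245% of P0 run 1. The 9 erythroid genes summed to 62.7 CPM in P0 run 2, 105 CPM in P7 and 2197 CPM in P0 run 1. Gnrh1, the gonadotropin-releasing hormone gene, stood at 263 CPM in P0 run 1 against 0.315 CPM in P0 run 2 and 0.252 CPM in P7. P0 run 1 thus stood apart from both other runs in depth, globin RNA and 1 peptide. P0 run 2 and P7 shared 20 cell barcodes and the P0 runs shared 1. A tdTomato UMI was missing in 353 cells of P0 run 2 and 74 of P7. Rax itself, the gene that defines the lineage, was at 25.3 CPM in P0 run 1, 27.2 CPM in P0 run 2 and 24.3 CPM in P7. Nkx2-1, a factor that marks the ventral hypothalamus, was at 144, 144 and 132 CPM in the neuron-like cells described below, which checks the labelled tissue in all 3 runs.

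Neuron-like cells were the largest class at birth and took a smaller share a week later, when oligodendrocyte precursor-like and astrocyte-like cells took larger ones. Cells were grouped by clusters, and a cluster was called after a class only from marker genes of that class, so the names are rebuilt and not the study's own. Neuron-like cells were 57.1% of P0 run 2 (interval 56.1 to 58.1%) and 29.5% of P7 (28.6 to 30.5%), with 57.3% in P0 run 1. Oligodendrocyte precursor-like cells, the migrating and dividing cells that later make myelin, were 1.14% of P0 run 2 (0.940 to 1.38%), 30.1% of P7 (29.2 to 31.1%) and 0.856% of P0 run 1. Both P0 runs were thus close to each other and far from P7 in these shares. The cells behind the shares lay in different clusters. Of the 1406 neuron-like cells of P0 run 1, 1224 lay in a cluster led by Gnrh1, Oxt and Avp, with 21 cells of P0 run 2 and 7 of P7. An unnamed cluster that scored highest for oligodendrocyte precursor markers, and is not in these shares, held 69, 146 and 246 cells of P0 run 1, P0 run 2 and P7. Oligodendrocyte-like cells numbered 4 in P0 run 2 and 199 (2.23%) in P7. Astrocyte-like cells were 6.92% of P0 run 2 and 15.7% of P7, tanycyte-like cells 3.53% and 6.77%, and ependymal-like cells 0.457% and 5.64%. In P0 run 1 these 3 classes were at 0.0816%, 0.856% and 0.979%. The order was the opposite for immature cells. Radial glia-like cells were 11.7% of P0 run 2 and 3.17% of P7, and 35.7% of P0 run 1. Neuronal precursor-like cells, led by the proneural gene Neurog2, were 5.12% of P0 run 2 (493 cells), 0.449% of P0 run 1 (11 cells) and 1 cell of 8917 at P7, an interval of up to 0.0625%. The P0 runs also differed widely from each other in their radial glia-like, astrocyte-like and neuronal precursor-like shares. Of the 875 radial glia-like cells of P0 run 1, 763 lay in a cluster with 85 cells of P0 run 2 and 54 of P7. That cluster scored 0.844 for radial glia and 0.671 for astrocyte markers. The radial glia-like and astrocyte-like shares of P0 run 1 therefore depended on its name. Cells left unnamed, whose clusters held globins beside Dll1 and Olig1, leading markers of more than 1 class, or mostly called doublets, were 13.97% of P0 run 2, 6.78% of P7 and 3.71% of P0 run 1. The 2 clusters with over 50% called doublets held 91 and 78 cells of P7, against 1 and 3 of P0 run 2. All shares are of live cells that passed the tdTomato sort. The smaller classes depended on how cells were grouped. A cluster led by Clec3b and Col23a1, with 599 cells of P0 run 2 and 34 of P7, scored alike for ependymal and radial glia markers, had tanycyte markers among its leading genes and was left unnamed. With finer clusters (resolution 2) the ependymal-like share was 6.01% of P0 run 2 and 6.29% of P7, and with coarser ones (resolution 0.5) the tanycyte-like share was 9.99% and 8.69%. With each cell placed by its own highest marker score, the neuron-like shares were 43.5% and 27.9%, the tanycyte-like shares were 3.50% and 3.75%, the ependymal-like shares 4.31% and 7.20%, and the oligodendrocyte-like shares 4.22% and 1.41%. The age order of the oligodendrocyte-like and tanycyte-like shares therefore held only under some groupings, while the neuron-like, oligodendrocyte precursor-like, astrocyte-like and radial glia-like shares kept theirs under all 3.

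**Figure D1:**
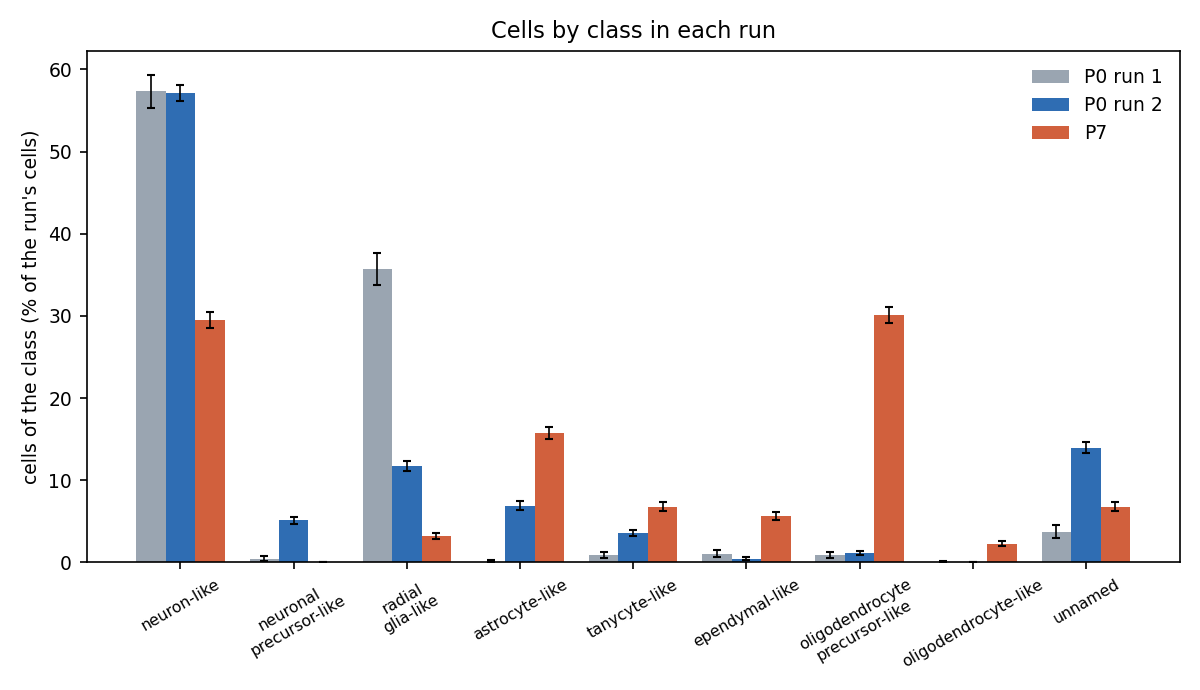
Bars give the share of each run's cells in each class, in percent, for P0 run 1 (grey), P0 run 2 (blue) and P7 (orange), with exact binomial 95% intervals for counting error. Neuron-like cells are at 57.3%, 57.1% and 29.5%, and oligodendrocyte precursor-like cells at 0.856%, 1.14% and 30.1%.

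Depth per cell differed by class. The median neuron-like cell had 10599 UMIs in P0 run 2 and 19789 at P7, and the median ependymal-like cell 9595.5 and 18798. Radial glia-like cells (10249 and 13472), tanycyte-like cells (7554 and 10006) and unnamed cells (8858 and 11743) were also deeper at P7, while the medians of astrocyte-like cells were 9549.5 and 9530.0 and those of oligodendrocyte precursor-like cells 8606 and 8305.5. Neuron-like cells therefore gave 60.0% of the UMIs of P0 run 2 and 44.5% of those at P7, a smaller difference than in their share of cells. Over all cells, 14450 genes passed the filter, and 1674 of them (11.6%) were at least 2-fold higher at P7 and 627 (4.34%) at least 2-fold lower. With P0 run 1 in the place of run 2, the shares were 17.5% and 4.37% of 14246 genes. The median log2 ratio of all genes tested was 0.14, and 0.30 against P0 run 1. List counts and medians below are against P0 run 2 unless P0 run 1 is named, and 30 of 35 list medians over all cells lay outside the medians of their genes' interval bounds with P0 run 1 in its place.

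Genes of oligodendrocyte precursors were among the most different between the ages. Of the 16 genes in this list, 15 were at least 2-fold higher at P7 and none was lower, and the list's median log2 ratio was 2.34. Set against P0 run 1, 14 were higher and none lower, with a median of 2.44. Pdgfra, the receptor through which these cells receive their growth factor, was at 31.5 CPM in P0 run 1, 26.7 CPM in P0 run 2 and 296 CPM at P7. That is 11.08-fold higher at P7 than in P0 run 2 (interval 10.67 to 11.52), with both P0 runs near each other. Sox10, the transcription factor of the whole oligodendrocyte lineage, was at 9.68, 6.62 and 136 CPM in the same order. Olig1 and Olig2, factors that set the lineage's fate, were 4.38-fold and 3.26-fold higher. Cacng4, a subunit that goes with AMPA receptors, was the member short of the 2-fold line, at 131 CPM in P0 run 2 and 213 CPM at P7.

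The next stage, precursors that have left the cycle, was split. Of 13 such genes that passed among 14, 7 were higher and 1 was lower. Gpr17, a receptor that marks committed precursors, was at 8.11, 8.56 and 192 CPM in P0 run 1, P0 run 2 and P7, so 22.4-fold higher (21.0 to 23.9). Enpp6, an enzyme of newly forming oligodendrocytes, was 30.1-fold higher, at 0.601 CPM and 18.1 CPM. Neu4, a sialidase of the same cells, rested on 10 UMIs in P0 run 2 and 1104 at P7. The lower member was Tmem2, a cell-surface hyaluronidase, at 32.5 CPM in P0 run 2 and 12.3 CPM at P7.

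Myelin genes did not move as 1 block. Of 24 members 20 passed the filter, and 15 of these were higher and 1 lower at P7. With P0 run 1 in place of run 2, 16 of 18 were higher and none lower. Myrf, the factor that starts myelin gene transcription, was at 1.35, 0.962 and 11.7 CPM in P0 run 1, P0 run 2 and P7. Ugt8a, which makes the galactolipids of myelin, was 6.50-fold higher and Cldn11, the tight junction protein between myelin turns, 5.71-fold. Mbp, which compacts the membrane, was at 14.19, 36.9 and 109 CPM in the 3 runs. The structural gene Mobp went the other way, at 0.901, 4.08 and 0.390 CPM, so 10.5-fold lower at P7 than in P0 run 2 (7.76 to 14.4). The late myelin genes Mog, Ermn and Opalin were below the filter and were also lower at P7, with 98, 211 and 20 UMIs in P0 run 2 and 36, 65 and 3 at P7. They were low in P0 run 1 as well, at 0, 1.29 and 0 CPM. The place of the Mobp UMIs differed between the ages. At P7, 83.3% of Mobp UMIs were in oligodendrocyte-like cells. In P0 run 2, with its 4 oligodendrocyte-like cells, 66.9% of Mobp UMIs were in neuron-like cells. Mobp was also found at 2.93 CPM in astrocyte-like and 4.70 CPM in tanycyte-like cells of P0 run 2, so its UMIs were spread over classes that do not make myelin. The part of free RNA in these values was not tested.

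**Figure D2:**
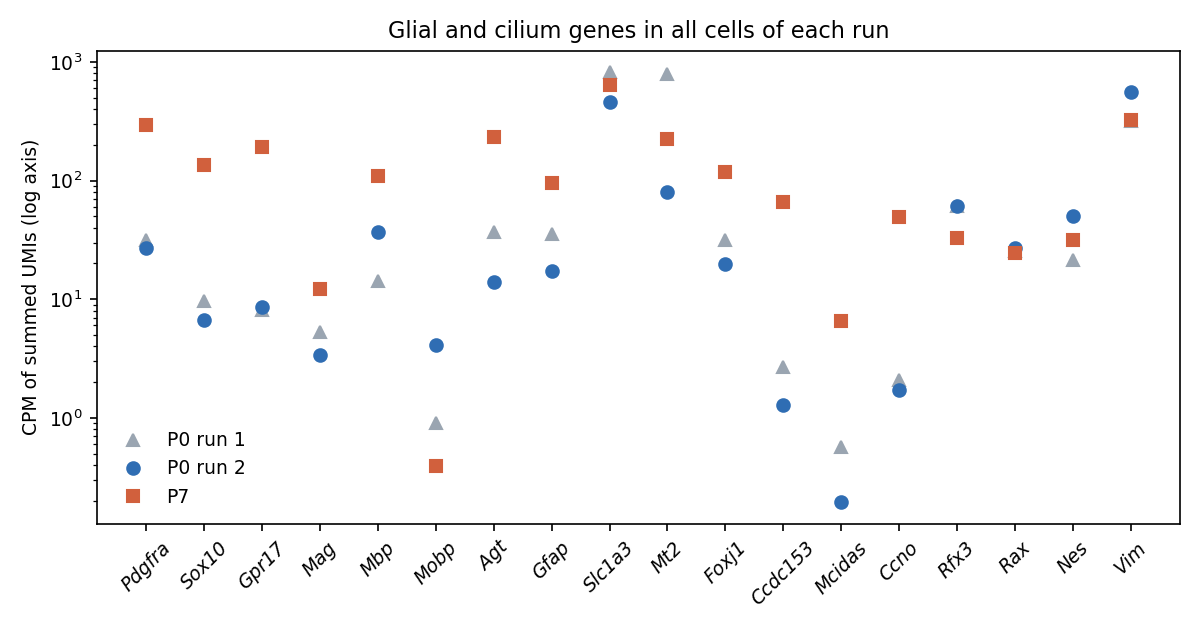
Points give the level of 18 glial, cilium and progenitor genes in all cells of each run, in CPM on a log axis, for P0 run 1 (triangles), P0 run 2 (circles) and P7 (squares). Pdgfra, Sox10, Gpr17, Ccdc153 and Ccno lie above both P0 runs at P7 (Pdgfra at 31.5, 26.7 and 296 CPM), Mobp lies below both, and Mt2 lies between them.

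The motile cilium programme of the ventricle wall stood out next. Of 24 listed genes of ependymal cells and motile cilia 22 passed, and 18 were at least 2-fold higher at P7 and none lower, with a median log2 ratio of 2.10. The counts against P0 run 1 were 19 higher and none lower, with a median of 2.09. Foxj1, the factor that commits a cell to motile cilia, was at 31.8, 19.6 and 118 CPM in P0 run 1, P0 run 2 and P7. Ccdc153 was at 2.70, 1.28 and 66.5 CPM and Tmem212 at 2.59, 1.203 and 76.6 CPM, so 52.1-fold and 63.7-fold higher than in P0 run 2. Zmynd10, which helps to assemble the dynein motors, was 9.10-fold higher. Tekt4, a protein of the axoneme's microtubules, was 7.07-fold higher and Cfap126, a ciliary protein, 4.83-fold. Rfx3, a factor that binds cilium promoters, was the only member below its P0 run 2 level, at 61.5 CPM and 33.0 CPM, within the 2-fold line, while its relative Rfx2 was 2.52-fold higher.

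Genes that start the making of many centrioles in 1 cell were higher as well. Of 12 listed genes 10 passed and 8 were higher, with a median log2 ratio of 3.65. By comparison with P0 run 1, 8 of 10 were higher, with a median of 2.63. Mcidas, which starts the multiciliated state, had 21 UMIs in P0 run 2 and 811 at P7 (0.194 and 6.59 CPM, with 0.563 CPM in P0 run 1). Ccno, which is needed to amplify centrioles, was at 2.08, 1.70 and 49.3 CPM, and Deup1, the scaffold on which they form, at 3.43, 2.18 and 59.2 CPM. These are ratios of 29.0 (25.03 to 33.75) and 27.1 (23.8 to 31.0). Plk4 and Cep152, which serve centriole duplication in any dividing cell, were the members that passed without a 2-fold difference, at 1.06-fold and 1.74-fold. Most P7 cells of the ependymal-like class lay in a cluster led by Ccno, Deup1 and Mcidas (255 cells) and one led by Ccdc153 and Tmem212 (243 cells), against 10 and 6 cells of P0 run 2. The other 28 cells of the class in P0 run 2 lay in a cluster led by Wnt8b and Anxa1. It also held 19 cells of P0 run 1 and 5 of P7.

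RFX factors bind a palindrome known as the X-box, and the promoters of cilium genes are shown here because those genes were higher together at P7. The search used the letters GTNNCCNNGGNNAC, which read the same on both strands, in RefSeq promoters (GRCm38.p6) of 300 bases, from 250 before each start site to 50 from it on. Of the 22 cilium genes that passed, 18 had a promoter in the table and 5 of these (27.8%) held the motif, as did 2 of 10 multiciliation genes. The share was 3.03% over the 10353 tested genes with a promoter, and among the other lists searched the motif was in 1 of 10 oligodendrocyte precursor genes, 1 of 21 neuropeptide precursors, 0 of 25 astrocyte genes and 0 of 15 myelin genes. A match says that these letters are present, not that a factor binds there. In the following promoters, written 5′ to 3′ on the strand of the gene, capitals mark the match.
Zmynd10 (chr9:107547054-107547353, plus strand): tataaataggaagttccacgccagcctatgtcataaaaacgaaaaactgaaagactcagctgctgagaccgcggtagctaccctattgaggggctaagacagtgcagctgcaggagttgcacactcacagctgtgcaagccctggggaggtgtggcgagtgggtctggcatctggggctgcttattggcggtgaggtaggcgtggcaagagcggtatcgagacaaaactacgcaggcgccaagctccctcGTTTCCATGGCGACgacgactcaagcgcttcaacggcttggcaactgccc
Cfap126 (chr1:171122795-171123094, plus strand): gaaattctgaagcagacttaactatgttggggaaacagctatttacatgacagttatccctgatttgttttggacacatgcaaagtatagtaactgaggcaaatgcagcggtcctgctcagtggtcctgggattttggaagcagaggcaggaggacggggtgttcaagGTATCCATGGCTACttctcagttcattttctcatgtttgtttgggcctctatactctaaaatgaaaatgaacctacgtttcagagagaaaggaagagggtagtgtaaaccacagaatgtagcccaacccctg
Pifo (chr3:106001448-106001747, minus strand): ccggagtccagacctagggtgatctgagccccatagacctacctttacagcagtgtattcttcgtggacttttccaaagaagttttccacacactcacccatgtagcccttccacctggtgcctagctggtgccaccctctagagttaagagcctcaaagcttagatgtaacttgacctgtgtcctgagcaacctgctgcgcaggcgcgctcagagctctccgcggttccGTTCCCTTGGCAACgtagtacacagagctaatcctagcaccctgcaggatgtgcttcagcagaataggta
Tekt4 (chr17:25471340-25471639, plus strand): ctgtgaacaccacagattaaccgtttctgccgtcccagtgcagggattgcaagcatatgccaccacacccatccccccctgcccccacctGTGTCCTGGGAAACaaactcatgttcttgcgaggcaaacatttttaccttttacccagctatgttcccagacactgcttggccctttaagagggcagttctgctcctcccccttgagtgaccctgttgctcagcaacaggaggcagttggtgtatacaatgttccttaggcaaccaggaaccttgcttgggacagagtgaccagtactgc
The match in Zmynd10 begins at the start site itself, that in Pifo 20 bases before it, that in Cfap126 82 bases before it and that in Tekt4 160 bases before it. The levels of Pifo, a gene of early cilium assembly, were 30.4, 19.3 and 70.9 CPM in P0 run 1, P0 run 2 and P7. The fifth cilium gene with the motif, Rfx2, has its match 34 bases after the start site and the lowest log2 ratio of the 5, at 1.34, and its promoter is not printed. The order of the ratios was Zmynd10, Tekt4, Cfap126, Pifo, Rfx2, which is not the order of the distances.

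Some genes usually read as neuronal or pituitary were higher at P7 through glial classes. Hdc, the enzyme that makes histamine, was at 9.74, 9.22 and 52.0 CPM over all cells of P0 run 1, P0 run 2 and P7, yet in neuron-like cells it was at 8.99, 13.7 and 8.49 CPM. Of its UMIs, 89.4% were in neuron-like cells in P0 run 2, and 86.6% in ependymal-like cells at P7. Slc17a8, a vesicular glutamate transporter, was 7.29-fold higher over all cells, with 83.7% of its P7 UMIs in ependymal-like cells. Lhb, a pituitary hormone subunit, had 28 UMIs in P0 run 2 and 536 at P7, of which 86.8% were in ependymal-like cells. The potassium channel gene Kcna1 was at 0.844, 0.786 and 12.9 CPM, with 81.3% of its P7 UMIs in oligodendrocyte precursor-like cells and 4.9% in neuron-like cells. The choline transporter gene Slc5a7 was at 0.901, 1.91 and 6.15 CPM, with 63.3% of its P7 UMIs in oligodendrocyte precursor-like cells. All 5 genes were at least 2-fold higher over all cells, and in neuron-like cells Hdc and Slc5a7 were below their P0 run 2 level.

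Astrocyte genes were higher at P7 than in P0 run 2 in 20 of 28 cases and lower in none, with a median log2 ratio of 1.45. Against P0 run 1, 12 of 28 were higher and 2, Mt2 and Mt3, were lower, with a median of 0.81. The list summed to 9572 CPM in P0 run 1, 4811 CPM in P0 run 2 and 10705 CPM at P7, so the sum of P0 run 1 lay near that of P7. Fgfr3, a growth factor receptor and 1 of the 20, was at 78.3, 36.8 and 76.9 CPM. Agt, the angiotensin precursor of hypothalamic astrocytes, was at 36.8, 14.03 and 232 CPM in P0 run 1, P0 run 2 and P7. Gjb6, a gap junction protein of mature astrocytes, had 15 UMIs in P0 run 2 and 693 at P7. Of the genes that stayed within 2-fold, Slc1a3, the glutamate transporter GLAST, was at 817, 455 and 639 CPM. Aldh1l1, a folate enzyme, was at 64.97, 47.1 and 61.9 CPM, and P0 run 1 was the highest run for both. The metallothionein genes depended on the P0 run as well. Mt2 was at 794, 79.5 and 225 CPM in P0 run 1, P0 run 2 and P7, and Mt1 at 1919, 347 and 1020.3 CPM, so P7 lay between the P0 runs.

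Within astrocyte-like cells the astrocyte genes differed as well. The class was clustered without these genes, and genes that served to name a class are left out of its counts. Most P0 run 2 cells of this class (665 of 666) lay in a cluster led by Gfap and Aqp4, and most P7 cells (1006 of 1402) in one led by Agt and Slc7a10. A difference within this class therefore also mixes kinds of cell with their age. Of 15 further astrocyte genes that passed, 10 were at least 2-fold higher at P7 and none lower, where 8.04% of all genes tested in these cells were higher and 5.59% lower. Genes of other classes were higher there too: 7 of 11 cilium genes (median log2 ratio 1.35) and 5 of 9 myelin genes (1.12), with none lower, beside a median of 1.68 for the astrocyte genes. The part of free RNA in these values was not tested. S100b, a calcium-binding protein, was at 18.2 CPM in P0 run 2 and 217 CPM at P7, 11.9-fold higher (9.98 to 14.4). Cldn10, a claudin, was 11.12-fold higher and Clu, a secreted chaperone, 9.59-fold. Apoe, the main lipid carrier of astrocytes, was 2.68-fold higher, at 7828 and 20998 CPM. In these cells Mt1 was at 1756 and 1777 CPM, so its ratio over all cells was not matched within the class. Genes of fetal growth were lower in 8 of 18 cases and higher in none. Igf2bp1, an RNA-binding protein of fetal tissue, was at 14.05 and 0.821 CPM, and Hmga2, a chromatin protein of young progenitors, at 18.6 and 2.74 CPM.

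Tanycyte genes as a list differed little over all cells: 4 of 18 that passed among 20 were higher and none was lower, with a median log2 ratio of 0.55. Of the 4, Cd59a was at 18.3, 3.15 and 12.8 CPM and Frzb at 6.87, 2.43 and 5.56 CPM in P0 run 1, P0 run 2 and P7, so P0 run 1 was the highest run for both. Within tanycyte-like cells the difference was wider. All 340 cells of this class in P0 run 2 lay in a cluster led by Scn7a, and 554 of 604 at P7 in one led by Crym, and both clusters had Rax and Col23a1 among their leading genes. The unnamed cluster led by Clec3b and Col23a1 also had Crym among its leading genes. Its 599 cells of P0 run 2 and 34 of P7 are not in the class. A difference within the class therefore mixes kinds of cell with their age. Of 11 further tanycyte genes, 7 were higher at P7 and none lower, with a median log2 ratio of 1.71, beside 15.5% and 9.29% of all genes tested. Genes of other classes that did not serve for naming differed to a like degree in these cells: 10 of 15 astrocyte genes were higher (median 1.79, sum of the list 3768 and 14562 CPM), 10 of 13 cilium genes (median 1.60) and 7 of 8 myelin genes (median 1.71), and none was lower. In the 21 tanycyte-like cells of P0 run 1 the astrocyte list summed to 11018 CPM, nearer to P7 than to P0 run 2. Cd59a, a complement inhibitor, was at 3.61 and 87.9 CPM. Lhx2, a factor that tanycytes need, was at 222 CPM in both. Genes of fetal growth were lower in 14 of 20 cases, and 2, H19 and Hmga1, were higher, Hmga1 on 3 and 21 UMIs. Dlk1, a paternally expressed Notch-family ligand, was at 1344 and 129 CPM, 10.4-fold lower. Cdkn1c, a maternally expressed brake on the cell cycle, was 4.68-fold lower. The 7 oligodendrocyte precursor genes that did not serve for naming and passed were higher in tanycyte-like cells too, with a sum of 281 CPM over the list in P0 run 2 and 773 CPM at P7. Pdgfra was at 4.34 CPM in the tanycyte-like cells of P0 run 2 and 44.1 CPM in those of P7, against 1304 CPM in oligodendrocyte precursor-like cells at P7. The part of free RNA in these values was not tested.

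Progenitor genes were close to even over all cells although the radial glia-like share was smaller at P7. Of 24 radial glia genes 1 was higher and none lower, with a median log2 ratio of 0.08. The higher gene was Ednrb, an endothelin receptor, at 261, 173 and 356 CPM in P0 run 1, P0 run 2 and P7. Of 14 glial fate factors 3 were higher, Sox8, Etv4 and Etv5, and 1, Id1, was lower. Etv5, which acts downstream of growth factor signals, was at 34.8, 17.4 and 35.4 CPM, so P0 run 1 lay at the P7 level. Nes and Vim, filament genes of radial glia, were 1.59-fold and 1.73-fold lower at P7 than in P0 run 2, and P0 run 1 was at 21.6 and 316 CPM, at or below the P7 levels of 31.7 and 321 CPM. None of 21 mitosis genes and 1 of 20 DNA replication genes, Cdt1, crossed the 2-fold line, with medians of 0.16 and 0.48. Set against P0 run 1 the medians were 0.96 and 0.98. Within classes the values were unlike those over all cells. In oligodendrocyte precursor-like cells 20 of 21 mitosis genes were lower at P7 and none was higher, with a median log2 ratio of -1.73, where 7.99% of all genes tested in these cells were lower and 10.2% higher. Their sum was 6483 CPM in the 110 such cells of P0 run 2, 1883 CPM in the 2688 of P7 and 5945 CPM in the 21 of P0 run 1. An unnamed cluster with globins and Olig1 among its leading genes scored highest for precursor markers, at 1.75. Its 146 cells of P0 run 2 and 246 of P7 are not in these values. Mki67, a protein of cycling cells, was at 736 and 145 CPM in the class in P0 run 2 and P7. Mitosis genes were also lower in 12 of 17 cases in tanycyte-like cells and 7 of 15 in astrocyte-like cells, and higher in none. The clusters led by genes of division took different shares of their class. Those led by Pclaf and by Ube2c held 55 and 35 of the 110 oligodendrocyte precursor-like cells of P0 run 2 and 596 and 275 of the 2688 of P7. The radial glia-like cluster led by Mki67 and Cenpf held 456 of 1127 cells of P0 run 2 and 226 of 283 of P7, so its share of the class was larger at P7 and that of the precursor clusters smaller.

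**Figure D3:**
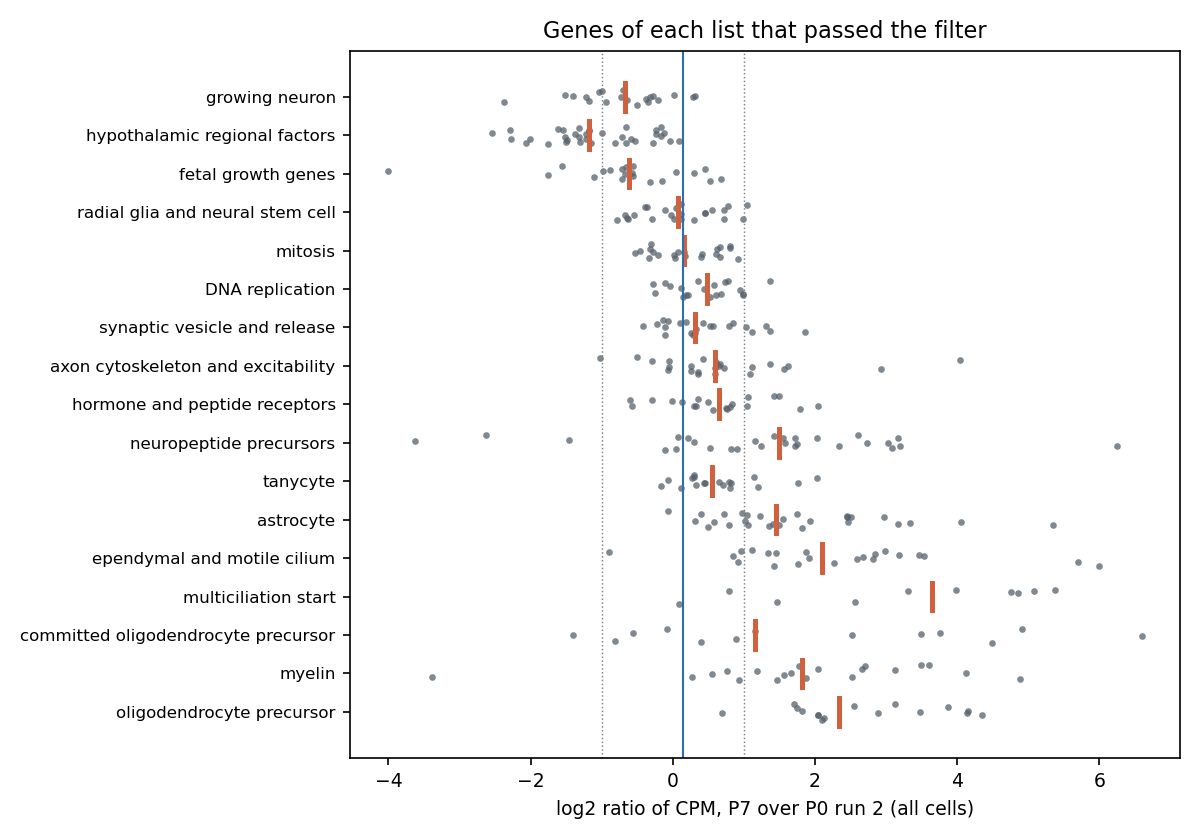
Each grey point is 1 gene that passed the filter, placed by its log2 ratio of CPM, P7 over P0 run 2, in all cells, with a row for each of 17 gene lists. Orange bars mark list medians, the blue line the median of all genes tested (0.14) and dotted lines a 2-fold difference; the regional factors have a median of -1.18 and the multiciliation genes 3.65.

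Some genes of newly made neurons were lower at P7, and most stayed within 2-fold. In the list of neuronal precursor genes, 5 of 14 that passed were lower and 1 was higher, with a median log2 ratio of -0.33. Neurog2, a proneural factor, had 1056 UMIs in P0 run 2 and 19 at P7 (9.77 and 0.154 CPM, with 7.32 CPM in P0 run 1), and Neurod1, which acts after it, was 4.32-fold lower. Igsf8, the higher one, is an immunoglobulin-family surface protein, and 30.5% of its P7 UMIs were in neuron-like cells. Among 20 genes of growing neurons, 6 were lower and none higher, with a median log2 ratio of -0.67. Against P0 run 1 the precursor list had 4 lower and 4 higher, and the growing-neuron list 4 lower and 1 higher, with medians of -0.20 and -0.47. Sox11, a factor of immature neurons, was at 562, 1452 and 281 CPM in P0 run 1, P0 run 2 and P7, 5.16-fold lower than in P0 run 2 (5.10 to 5.22). Stmn1, which destabilises microtubules in growing axons, was at 3188, 4146 and 1565 CPM. P7 was the lowest run for both genes, and P0 run 1 lay between the others.

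Among neuron-like cells alone these differences were found in part. There 13421 genes were tested outside the naming markers, and 8.45% were at least 2-fold higher and 6.13% at least 2-fold lower at P7. The largest clusters of the class differed between the ages: in P0 run 2 they were led by Hdc and Tbx3 (1129 cells), Meis2 and Lhx8 (818 cells) and Hmx2 (746 cells), and at P7 by Pomc and Tac2 (813 cells), Vip and Rgs16 (357 cells) and Foxb1 and Lhx1 (320 cells). A difference within the class therefore mixes kinds of neuron with their age. Of 6 neuronal precursor genes outside the naming markers, 2 were higher there, Rgs16 and Igsf8, and 1, Elavl2, was lower. Of the 20 growing-neuron genes, 4 were lower: Dcx, Sox11, Sox4 and Cd24a. Sox11 was at 743, 1763 and 269 CPM in the neuron-like cells of P0 run 1, P0 run 2 and P7, 6.56-fold lower than in P0 run 2. Dcx, a microtubule protein of migrating neurons, was at 264, 530 and 173 CPM. Stmn1, Nrep and Dpysl5, lower over all cells, stayed within the 2-fold line there, Stmn1 at 5448 and 2933 CPM.

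Factors that pattern the hypothalamus were lower as a group. Of 40 regional factors 35 passed over all cells, and 20 were lower and none higher at P7, with a median log2 ratio of -1.18. In neuron-like cells 16 of 37 were lower and none higher, with a median of -0.88. Against P0 run 1, 14 of 36 were lower and 3 higher over all cells (median -0.76), and 16 of 37 lower and 6 higher in neuron-like cells (median -0.57), where 5.17% of all genes tested were lower and 16.3% higher. Meis2, a factor of GABA neurons, was at 92.2, 55.9 and 5.70 CPM in the neuron-like cells of P0 run 1, P0 run 2 and P7, 9.81-fold lower than in P0 run 2 (8.73 to 11.05). Over all cells it was 2.27-fold lower, and 50.4% of its P7 UMIs were in oligodendrocyte precursor-like cells. Lhx6 and Lhx8, factors of GABA and cholinergic neurons, were at 21.2 and 4.46 CPM and at 5.49 and 0.694 CPM in the neuron-like cells of P0 run 2 and P7. The Dlx genes Dlx1, Dlx2, Dlx5 and Dlx6, which drive the GABA programme, were 2.83-fold, 2.47-fold, 2.32-fold and 2.33-fold lower over all cells. In neuron-like cells only Dlx1 of these 4 crossed the line. Nkx2-1, Otp, Lhx1, Six3, Six6, Tbx3 and Foxb1, which pattern ventral, neuroendocrine or mammillary territories, were within 2-fold in neuron-like cells. Foxb1 was the member nearest to being called higher there, at 42.0, 60.7 and 121 CPM.

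Neuropeptide precursors had, in neuron-like cells, the largest median ratio among the neuronal lists against P0 run 2, but not against P0 run 1. Of 36 precursor genes 28 passed over all cells, and 17 were higher and 3 lower at P7. In neuron-like cells 29 passed, and 21 were higher and 2 lower, with a median log2 ratio of 1.85. Relative to P0 run 1, 19 of 30 were higher and 4 lower in these cells, with a median of 1.25. Among all genes tested there, 8.45% were higher and 6.13% lower against P0 run 2, and 16.3% and 5.17% against P0 run 1. Npy, a peptide that drives feeding, was at 101, 90.3 and 1146 CPM in the neuron-like cells of P0 run 1, P0 run 2 and P7. Agrp, made by the same hunger neurons of the arcuate nucleus, was at 19.96, 25.7 and 300.1 CPM. Pomc, whose product curbs feeding, was at 24.9, 29.7 and 238 CPM. For these 3 genes the P0 runs were near each other and P7 was 8.02-fold to 12.7-fold above run 2. Ghrh, the growth hormone-releasing hormone gene, was at 29.1, 63.5 and 687 CPM, and Npw, a further peptide that acts on feeding, had 32 UMIs in P0 run 2 and 2804 at P7 (0.493 and 51.2 CPM, a ratio of 104 with an interval of 73.3 to 152). Ghrh and Npw shared a cluster of 18 cells in P0 run 2 and 183 at P7. Tac2, the neurokinin B precursor, was at 9.09, 9.28 and 79.6 CPM.

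The hormones of the posterior pituitary depended on the P0 run. Oxt, the oxytocin precursor, was at 270.0, 31.4 and 467 CPM in the neuron-like cells of P0 run 1, P0 run 2 and P7, and Avp, the vasopressin precursor, at 1652, 456 and 2456 CPM. P7 was the highest run for both. Against P0 run 2 the ratios were 14.9 (14.24 to 15.6) and 5.39 (5.32 to 5.46), and the levels in P0 run 1 were much nearer to P7. Cck was at 169, 73.2 and 377 CPM, Gal at 112, 50.9 and 226 CPM, and Sst at 117, 124 and 357 CPM.

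The 2 peptide genes that were lower in neuron-like cells were Pmch and Hcrt. Pmch, the melanin-concentrating hormone precursor, was at 70.7, 177 and 19.6 CPM in the neuron-like cells of P0 run 1, P0 run 2 and P7, so 9.04-fold lower than in P0 run 2. Hcrt, the orexin precursor, was at 3.34, 13.6 and 2.34 CPM, 5.83-fold lower. Qrfp, a further peptide gene, was below the filter, with 246 UMIs over all cells of P0 run 2 and 11 at P7. Other peptides found in lateral hypothalamic neurons were higher: Nts, the neurotensin gene, was at 34.9 and 141 CPM in the neuron-like cells of P0 run 2 and P7, Cartpt at 26.7 and 126 CPM, and Pdyn, the dynorphin precursor, at 16.6 and 35.6 CPM. Crh, the corticotropin-releasing hormone gene, was 2.74-fold lower over all cells and within 2-fold in neuron-like cells, at 18.2, 12.4 and 6.45 CPM. Tac1, the substance P precursor, was even, at 83.8 and 83.9 CPM in P0 run 2 and P7.

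**Figure D4:**
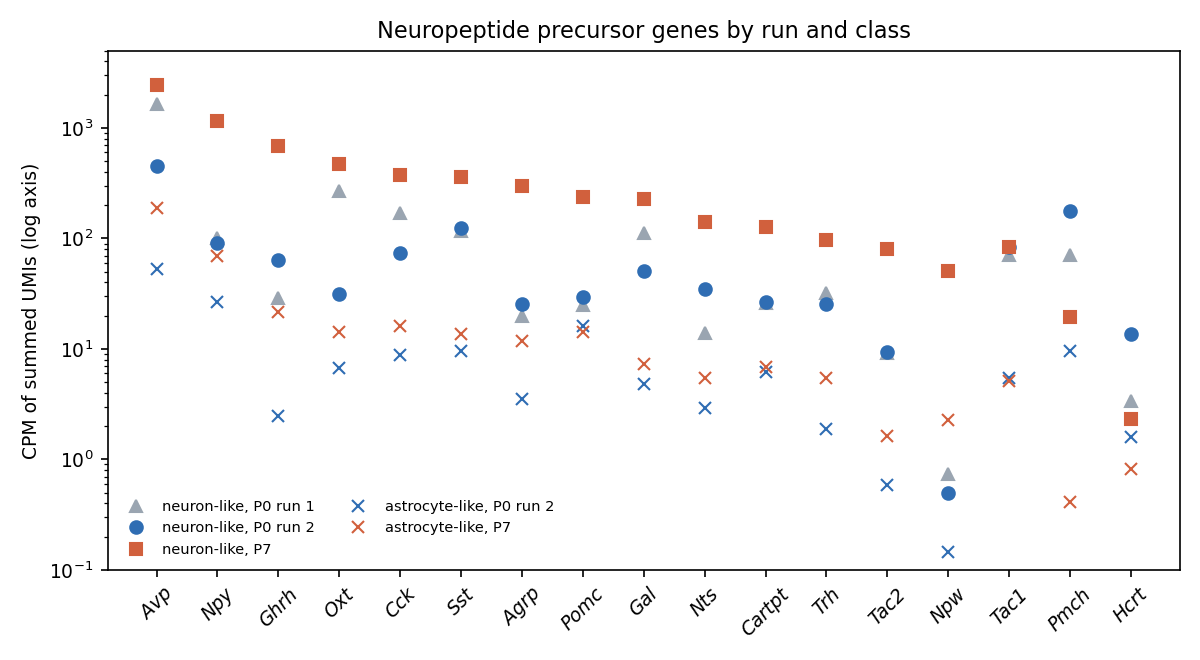
Points give the level of 17 neuropeptide precursor genes in neuron-like cells of P0 run 1 (triangles), P0 run 2 (circles) and P7 (squares), in CPM on a log axis; crosses give astrocyte-like cells of P0 run 2 (blue) and P7 (orange). Npy and Agrp at P7 stand above both P0 runs, Oxt and Avp of P0 run 1 lie between the other runs, and Pmch is lowest at P7.

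Peptide RNA was also found in cells that should not make it. In astrocyte-like cells Npy was at 26.3 CPM in P0 run 2 and 69.2 CPM at P7, and Avp at 52.4 and 190 CPM. With each cell thinned to 2000 UMIs, a UMI of Npy was found in 3.78% of neuron-like cells of P0 run 2 and 16.3% at P7, beside 3.45% and 12.3% of astrocyte-like cells. The unthinned shares were 11.6% and 55.5%, beside 12.5% and 39.4%, at median depths of 10599 and 19789 UMIs in neuron-like and 9549.5 and 9530.0 in astrocyte-like cells. For Avp the thinned shares were 10.9% and 24.0% of neuron-like cells, beside 11.4% and 19.3% of astrocyte-like cells, and the unthinned ones 40.9% and 80.1%, beside 38.6% and 63.8%. For Agrp the thinned shares were 1.09% and 6.72%, beside 0.751% and 1.93%, and the unthinned ones 3.58% and 21.5%, beside 3.45% and 9.70%. In P0 run 2 the thinned shares of Npy, Avp and Agrp in the 2 classes had overlapping intervals, so no order is read from these shares. For Cck the thinned shares were 7.51% and 23.2%, beside 0.751% and 3.21%, and the unthinned ones 16.5% and 42.7%, beside 6.61% and 11.9%. At P7 the thinned shares of all 4 genes lay above those of astrocyte-like cells, with exact 95% intervals for counting error that did not overlap. The CPM levels of neuron-like cells were above those of astrocyte-like cells for all 4 genes in both runs.

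The machinery that cuts and stores peptides was higher in part. In neuron-like cells 5 of 14 such genes were higher and none lower: Pcsk1, Scg2, Chga, Vgf and Resp18. In comparison with P0 run 1, 8 of 14 were higher and none lower, with a median log2 ratio of 1.36. Of all genes tested in these cells, 8.45% were higher against P0 run 2 and 16.3% against P0 run 1. Vgf, a granule protein that follows neuronal activity, was at 48.8, 62.5 and 244 CPM in P0 run 1, P0 run 2 and P7, and Resp18, a protein of peptide-secreting cells, at 367, 308 and 1186 CPM. Pcsk2 and Cpe, which cleave and trim most precursors, were within 2-fold, at 82.2 and 126 CPM and at 429 and 708 CPM. Receptors through which hormones and peptides reach these neurons were higher in 11 of 22 cases and lower in none. Ghr, the growth hormone receptor, was at 13.0, 6.60 and 35.3 CPM. Npy1r, Npy2r and Npy5r, receptors for neuropeptide Y, were all higher, with Npy2r at 3.45, 3.93 and 20.9 CPM. The leptin receptor gene Lepr had a level of 0.154 CPM in the neuron-like cells of P0 run 2 and 0.603 CPM at P7, under the filter. Insr, the insulin receptor, was at 33.8 and 18.96 CPM.

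Genes of the synapse and of excitability were higher in part. In neuron-like cells 6 of 22 synaptic vesicle genes and 7 of 23 axon and excitability genes were higher, and none of either was lower, with medians of 0.69 and 0.71. Relative to P0 run 1, 8 of 22 and 13 of 23 were higher and none lower, with medians of 0.86 and 1.21. Of all genes tested there, 8.45% were higher against P0 run 2 and 16.3% against P0 run 1, with medians of 0.03 and 0.25. Syp, the vesicle protein synaptophysin, was at 94.9, 137 and 692 CPM in P0 run 1, P0 run 2 and P7, 5.06-fold higher than in P0 run 2 (4.95 to 5.18). A Syp UMI was found in 21.3% of neuron-like cells of P0 run 2 and 70.0% of those at P7 after thinning, beside 2.55% and 6.42% of astrocyte-like cells; unthinned, the shares were 66.5% and 98.1%, beside 17.1% and 26.2%. Thy1, a surface protein of mature neurons, was at 5.44, 6.31 and 89.7 CPM. Nrgn, a postsynaptic calmodulin-binding protein, was at 17.7, 22.3 and 96.4 CPM. The pore-forming channel genes Scn1a, Scn2a, Scn3a and Scn8a were within 2-fold.

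Receptor subunits that change as neurons mature were set side by side. Among GABA-A receptor genes in neuron-like cells, Gabra2, an alpha subunit of many young neurons, was at 129, 130 and 67.3 CPM in P0 run 1, P0 run 2 and P7. Gabre, the epsilon subunit, was at 5.64, 5.24 and 53.5 CPM, 10.2-fold higher. Slc12a5, the chloride exporter that makes GABA inhibitory, was at 62.2, 93.2 and 95.8 CPM, and Slc12a2, the importer, at 13.6, 21.5 and 23.3 CPM, so neither differed by 2-fold between P0 run 2 and P7. Among NMDA receptor genes Grin1, the obligatory subunit, was at 31.9, 29.9 and 74.6 CPM. Grin2b, the subunit of young synapses, was at 83.8, 228 and 196 CPM, and Grin2a, which joins later, at 6.48, 21.8 and 39.4 CPM. Both were within 2-fold. Grin2c was at 1.46, 0.894 and 6.68 CPM.

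Genes of transmitter synthesis and transport were higher in 4 of 12 cases in neuron-like cells and lower in none, beside 8.45% and 6.13% of all genes tested. Slc32a1, which loads GABA into vesicles, was at 55.9, 70.5 and 152 CPM in P0 run 1, P0 run 2 and P7. Th, the first enzyme of dopamine synthesis, was at 14.53, 10.98 and 35.5 CPM, and Slc18a3, which loads acetylcholine, at 1.46, 1.56 and 10.8 CPM. Slc6a11, the GABA transporter GAT3 of astrocytes, was the fourth, at 17.1 and 54.6 CPM in neuron-like cells of P0 run 2 and P7. The astrocyte genes that did not serve for naming summed to 894, 329 and 1130 CPM in the neuron-like cells of P0 run 1, P0 run 2 and P7. Against P0 run 2, 11 of 14 were higher. With P0 run 1 in its place, 8 of 15 were higher and 2 lower, beside 16.3% and 5.17% of all genes tested. The sum of P0 run 1 lay nearer to that of P7. The part of free RNA in these values was not tested. Slc17a6, which loads glutamate, was within 2-fold, at 64.1, 99.1 and 189 CPM.

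**Figure D5:**
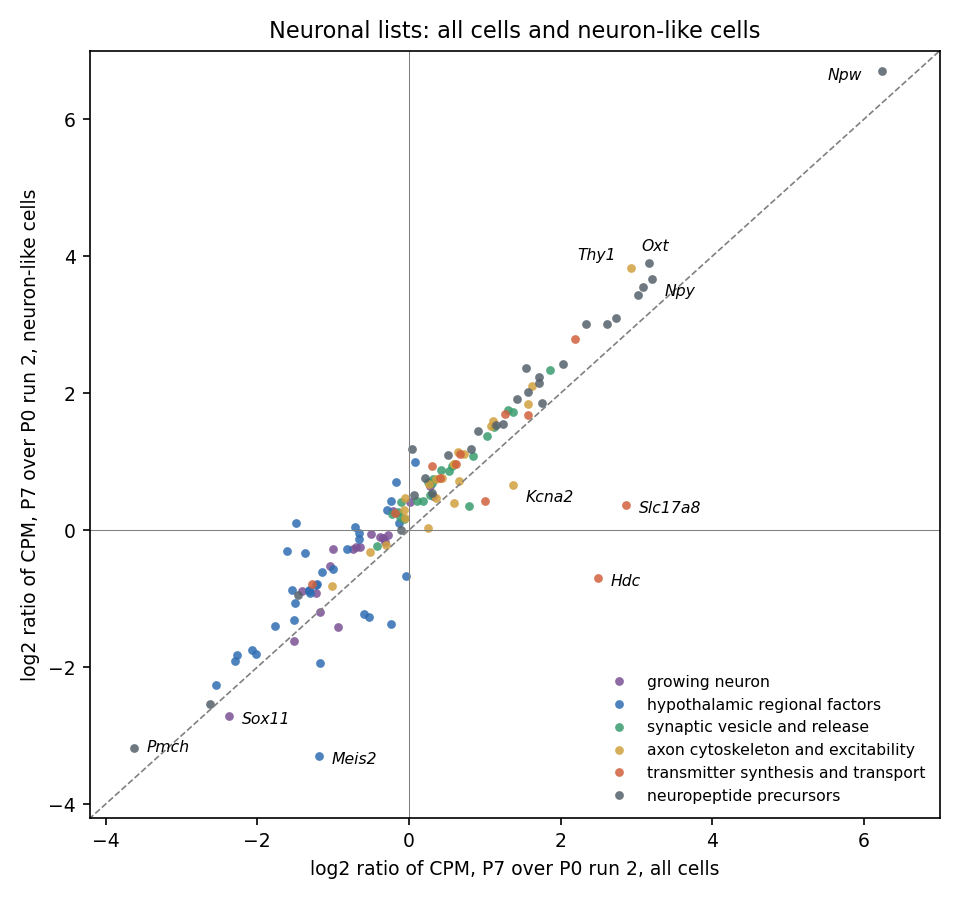
Each point is 1 gene of 6 neuronal lists, with its log2 ratio of CPM, P7 over P0 run 2, in all cells on the horizontal axis and in neuron-like cells on the vertical axis; the dashed line marks equal ratios. Hdc (2.50 and -0.69) and Slc17a8 (2.87 and 0.37) lie far below the line, and Meis2 (-1.18 and -3.29) also lies below it.

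Among all genes with a mean of at least 20 CPM, the 15 with the highest ratios were mostly glial or ciliary. The first was Gpr37l1, a receptor of astrocytes and oligodendroglia, at 7.66, 3.59 and 235 CPM in P0 run 1, P0 run 2 and P7, 65.3-fold higher (59.1 to 72.4). It was at 52.7 CPM in the oligodendrocyte precursor-like cells of P0 run 2 and 634 CPM in those of P7, and at 7.90 and 464 CPM in astrocyte-like cells, so it was higher in 2 classes as well as in the sum. Pllp, a myelin membrane protein, was 40.0-fold higher. The others were Tmem212, Ccdc153, Ccno, Deup1, Odf3b, Lrrc23, 1700001C02Rik, Gpr17, Sox10, Matn4, C1ql1, Shisa8 and Agt, 16.2-fold to 63.7-fold higher.

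The 15 lowest ratios were of another kind. Xist, which silences 1 X chromosome in female cells, was at 0.563, 524 and 0.122 CPM in P0 run 1, P0 run 2 and P7, and Tsix, its antisense neighbour, at 0.507, 44.3 and 0.349 CPM. The cells of the female pattern are themselves called from Xist UMIs, so their share is no separate measure. Whether the counting used strand is not given in the sources used here, so the reads of this overlapping pair are uncertain. Igfbpl1, a secreted protein of newborn neurons, was at 92.5, 158 and 12.9 CPM, and Dlx6os1, an RNA of the Dlx5 and Dlx6 locus, at 14.19, 62.5 and 7.61 CPM. Gm26735, an unnamed locus, was at 31.2, 217 and 16.4 CPM, and it was 11.6-fold lower in neuron-like cells too. CT010467.1, Gm37376, Hist1h1e, Hist1h2ae and mt-Nd6 were 4.35-fold to 29.8-fold lower at P7 than in P0 run 2, and were at 2.42 to 5.01 CPM in P0 run 1, below P7 in each case. Pmch, Sox11, Rnd3, Kitl and Bcl11b were the others, and P7 was the lowest run for all 5.

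The 12 highest ratios within neuron-like cells, among genes at a mean of at least 20 CPM whose level there was above that of the other cells in the run where the gene was higher, were largely of peptide genes: Npw, Oxt, Npy, Agrp, Ghrh, Tac2 and Pomc. The others were Thy1, Gabre, the secreted glutathione peroxidase Gpx3 (42.4, 22.5 and 262 CPM in P0 run 1, P0 run 2 and P7), Arhgap36, an inhibitor of protein kinase A found in neuroendocrine cells (10.7, 9.34 and 109 CPM), and the tubulin gene Tuba4a (11.498, 6.82 and 69.5 CPM). P7 was the highest run for each of these 3. In the run where it was lower, Thy1 was below the other cells, at 6.31 against 9.95 CPM in P0 run 2. The 12 lowest held Gm26735, Meis2, Pmch, Igfbpl1, Sox11 and Dlx6os1. The RNA-binding protein gene Mex3b was at 36.7, 67.9 and 15.4 CPM, and Bach2, a transcription repressor, at 21.0, 46.3 and 12.9 CPM. Sox2ot, the RNA that overlaps Sox2, was at 79.4, 183 and 48.5 CPM. At P7 Meis2 (5.70 against 31.1 CPM), Sox11, Sox2ot, Bach2 and Gm44286 were below the level of the other cells. The unnamed loci Gm44829, Gm16105 and Gm44286 were 3.42-fold to 3.47-fold lower than in P0 run 2, and P0 run 1 was the lowest run for Gm44829 and Gm44286, at 7.53 CPM each.

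Genes of fetal growth were lower in 4 of 20 cases over all cells and 7 of 18 in neuron-like cells, and higher in none, with a median log2 ratio of -0.61 over all cells. The median against P0 run 1 was -0.0044 over all cells, with 1 lower and 2 higher. Igf2bp1 was at 3.60, 8.48 and 0.528 CPM over all cells of P0 run 1, P0 run 2 and P7, 16.1-fold lower than in P0 run 2 (12.5 to 21.0). Cdkn1c was at 82.0, 234 and 80.0 CPM, so P0 run 1 lay near P7. Zdbf2, an imprinted gene of the hypothalamus, was at 87.4, 361 and 107 CPM. Of the thyroid hormone axis 2 of 10 genes were higher over all cells, Dio2 and Nrgn, and 1, Ttr, was lower. In neuron-like cells 2 of 8 were higher, Klf9 and Nrgn, and 1, Ttr, was lower. The shares of all genes tested there were 8.45% and 6.13%. Klf9, a direct target of the hormone receptor, was at 5.85, 5.21 and 26.7 CPM in neuron-like cells, 5.12-fold higher (4.55 to 5.78), and Nrgn, a further target, is given above. Thra, the main receptor, was at 490 and 463 CPM over all cells. Immediate early and stress genes, which dissociation can switch on, were mostly even: 3 of 18 were higher, Nr4a1, Hspa1a and Hspa1b, and Fos was at 205, 909 and 894 CPM in P0 run 1, P0 run 2 and P7. Their median log2 ratio was 0.12 against P0 run 2 and 2.38 against P0 run 1. Glycolysis genes were higher in 3 of 19 cases and cholesterol synthesis genes in 1 of 23, with none lower, beside 11.6% of all genes tested that were higher.

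Markers of cells outside the lineage were low in both runs. Of 13 microglia and macrophage genes 1 passed the filter, and the list summed to 23.1 CPM in P0 run 2 and 44.6 CPM at P7, with the defining genes Cx3cr1 and P2ry12 at 0.407 and 0.315 CPM and at 1.03 and 0.634 CPM. The 11 endothelium genes summed to 33.9 and 53.9 CPM, the 9 mural genes to 14.7 and 15.6 CPM and the 10 genes of meninges and fibroblasts to 36.5 and 87.2 CPM, of which Igfbp4 alone gave 20.9 and 70.4 CPM. The 8 choroid plexus genes summed to 28.8 and 11.46 CPM, with Ttr and Otx2 at least 2-fold lower. Hbb-y, an embryonic globin gene, had 266 UMIs in P0 run 2 and none in P7 or P0 run 1, at least 101-fold lower at P7 against a floor of 3 counts, and 59.4% of those UMIs were in neuron-like cells. The other-cell sums were not traced to classes, and the part of free RNA in them was not tested.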

How the data were processed

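The authors deposited 1 table of UMI counts, 28879 genes by 43261 cells, from 10x 3' libraries. Per the submitters' processing notes, Cell Ranger 3.0.2, Seurat and the build mm10 were used, with no role stated. All cells of the 3 runs used here had at least 2001 genes and at most 5.00% mitochondrial UMIs.

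Cells were assigned to runs by their column names, and 0 columns belonged to no mapped sample. Raw counts were summed per gene and run or per gene, class and run, and scaled to CPM. With 1 library per age, no test was run. Intervals are exact at 95% (conditional binomial for ratios, Clopper-Pearson for shares). Counts under 3 were raised to a floor of 3 before a ratio was taken. No ratio was given where both counts were 3 or fewer. Genes at a mean of at least 2 CPM were counted, and 2-fold was the threshold. The ratio script was checked on simulated counts.

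Cells were clustered with Scanpy 1.11.5 (2000 variable genes, 30 components, 20 neighbours, Leiden resolution 1) without 651 listed genes, giving 41 clusters. Clusters were named by standardised marker scores within each run, and classes scoring within 0.2 of the best were ranked by their leading markers. A cluster remained unnamed when under 3 markers were detected, its score was not positive or another class had more leading markers. The same held for a lead under 0.1 or a shallow cluster, each without a leading marker, and for over 50% called doublets. The naming details were set after the clusters were seen. Scrublet, with an expected 6% of doublets, marked 19, 138 and 254 cells of P0 run 1, P0 run 2 and P7, which were kept. TMM factors came from edgeR 4.0.16 and served as an alternative scaling only. Alternatives changed the P0 run, scaling, sex, doublets, tdTomato, filters, fold, clustering and depth.

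The members and the 35 gene lists (629 genes) were chosen with earlier results of these data known. Named genes are list members, the 15 highest and 15 lowest ratios at a mean of at least 20 CPM, and the 12 highest and 12 lowest in neuron-like cells. The myelin and peptide genes whose UMIs were traced to classes are list members. Some list members are not reported here. Promoter sequences are from RefSeq.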

Additional observations from a re-analysis of the deposited data

How the results depend on the processing

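No paired analysis was possible because each age has 1 library in this comparison. The 1674 higher and 627 lower genes over all cells became 4036 and 3575 with no filter on low counts, 879 and 240 at a mean of at least 10 CPM, 3548 and 1589 from 1.5-fold on, and 740 and 238 from 3-fold on. They were 1463 and 737 with TMM factors, which shifted all log2 ratios by -0.083, 1557 and 531 with both P0 runs pooled, 1846 and 725 as means of per-cell CPM, and 1696 and 629 in male cells only. In neuron-like cells the 1134 higher and 823 lower genes became 593 and 315 at a mean of at least 10 CPM, and 2156 were higher against P0 run 1.

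The neuron-like share of P0 was 53.0% at Leiden resolution 0.5 and 43.5% by each cell's own highest marker score (27.9% at P7). The oligodendrocyte precursor-like share of P0 was 2.399% at resolution 0.5, 2.46% at resolution 2, 0.856% in P0 run 1 and 3.56% by each cell's own score (29.1% at P7), and that of P7 was 31.6% at resolution 0.5.

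Of 219 named genes past 2-fold, 53 of the 203 that could be compared were under it against P0 run 1, 14 with both P0 runs pooled, 12 as means of per-cell CPM, 10 with TMM factors, 6 in male cells only, 1 without doublets, 1 with tdTomato-positive cells only, and 0 without the cells of shared barcodes, an alternative chosen after seeing the data. Against P0 run 1 the log2 ratio had the other sign for CT010467.1 (1.70), Cd59a (-0.51), Cnksr3 (-0.043), Fgfr3 (-0.027), Frzb (-0.30), Gm37376 (0.54), Hist1h1e (2.74), Hist1h2ae (0.14), Hmx3 (1.53), Ina (0.10), Mt1 (-0.91), Mt2 (-1.82), Onecut2 (0.46), Sncb (-0.18), Zdbf2 (0.29) and mt-Nd6 (0.68). Of 35 list medians, 30 lay outside the medians of their genes' interval bounds against P0 run 1. The choroid plexus list had a median of 0.74 with no filter. The causes were not tested. Depth limits genes of few UMIs, such as Neu4 with 10 in P0 run 2.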

Other observations

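Genes of glycolysis and of cholesterol synthesis were mostly within 2-fold. In neuron-like cells 4 of 18 genes of glycolysis and lactate were at least 2-fold higher at P7 and none was lower: Aldoa and Gapdh, which are enzymes of the pathway, Eno2, the neuronal enolase, and Slc2a1, a glucose transporter. Their list had a median log2 ratio of 0.63 there and -0.06 in astrocyte-like cells, where none of 18 differed by 2-fold. Of all genes tested in neuron-like cells 8.45% were higher. In tanycyte-like cells 2 of 18 were higher (median 0.45), beside 15.5% of all genes, and in oligodendrocyte precursor-like cells 1 of 18 (median 0.25), beside 10.2%, and the difference between classes was not tested. Against P0 run 1, 8 of 18 were higher in neuron-like cells, with a median of 0.90, beside 16.3% of all genes tested. The 23 genes of cholesterol synthesis had medians of 0.05 in neuron-like and 0.08 in astrocyte-like cells, with none past 2-fold in either, and 3 of 23 were higher in oligodendrocyte precursor-like cells. In tanycyte-like cells 5 of 9 genes of the thyroid hormone axis were higher, among them the deiodinase gene Dio3, the transporter gene Slco1c1 and the receptor gene Thrb, and 1, Ttr, was lower. The deiodinase gene Dio2, a naming marker, was at 36.9 CPM in P0 run 2 and 35.5 CPM at P7 there. Regional factors were lower in 17 of 28 cases in tanycyte-like cells, with Tbx3, a factor of the arcuate territory, at 166 and 39.8 CPM, and higher in 2, among them Nr2f1. Of all genes tested in this class 9.29% were lower and 15.5% higher, against 6.13% and 8.45% in the neuron-like class. As given above, the tanycyte-like cells of P0 run 2 and P7 lay mostly in different clusters. These differences therefore mix kinds of cell with their age.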
